A study of Mus musculus with 12 samples.

Results

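The islets of Langerhans hold, beside the insulin-producing beta cells, several other endocrine cell types, and 9 genes that mark them were followed here across pregnancy and loss of the prolactin receptor. The genes were taken by symbol and not by their values: the hormones Gcg, Sst, Ppy, Pyy and Ghrl, the transcription factors Irx1, Irx2 and Hhex, and the amino acid transporter Slc38a5. A gene counted as measured when a probe set of the array named it alone, and 9 of 9 genes had exactly 1 such probe set. They are 9 of the 19938 genes that the array measures in this way among its 35511 probe sets. Islets were isolated from 129Sv mice that lacked the prolactin receptor (Prlr-/-) or carried it (Prlr+/+), either on pregnancy day 9.5 (P9.5) or non-pregnant (NP). Each of the 4 groups had 3 Affymetrix MoGene_1.0_ST arrays, 12 in all, and the labels call the arrays biological replicates without giving the age of the mice or how many mice an array held. Pregnant Prlr-/- females had received a progesterone pellet, described for pregnant mice of this genotype only. The pellet can therefore not be told apart from the genotype at P9.5, from pregnancy in the P9.5 against NP comparison of Prlr-/- islets, or from the interaction of both. The receptor is missing from all cells of the Prlr-/- mouse and not only from islet cells. No probe set names Prlr alone, so the deletion could not be checked at the mRNA level.

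In the islet, alpha cells secrete glucagon, the product of Gcg, which raises blood glucose. Delta cells secrete somatostatin, the product of Sst, which restrains insulin and glucagon release, PP cells secrete pancreatic polypeptide, the product of Ppy, and the rare epsilon cells secrete ghrelin, the product of Ghrl. Pyy encodes peptide YY, a relative of pancreatic polypeptide that several islet endocrine cell types of the mouse make. Irx1 and Irx2 are homeobox factors enriched in alpha cells, and Hhex is a homeobox factor needed to keep the delta cell identity in mice. Slc38a5 carries glutamine and related neutral amino acids and, in mice, is induced in alpha cells when glucagon action is blocked. During pregnancy, placental lactogen and prolactin act on the islet through the prolactin receptor, best known for its effect on beta cells.

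Promoter sequence of the 4 most abundant hormone transcripts is shown because these genes carry the islet's non-beta hormone output and because Ppy and Pyy lie next to each other. The lines give the 100 bases before the most upstream transcription start, 5′ to 3′ on the strand of the gene (RefSeq, build GRCm38.p6, all 4 on the minus strand), with the motif closest to the start in capitals.
Gcg, chr2:62483654-62483753: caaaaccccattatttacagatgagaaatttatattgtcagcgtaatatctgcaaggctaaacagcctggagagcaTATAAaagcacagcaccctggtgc
Sst, chr16:23890845-23890944: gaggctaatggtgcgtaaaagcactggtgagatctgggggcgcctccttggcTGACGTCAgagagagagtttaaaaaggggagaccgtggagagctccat
Ppy, chr11:102101320-102101419: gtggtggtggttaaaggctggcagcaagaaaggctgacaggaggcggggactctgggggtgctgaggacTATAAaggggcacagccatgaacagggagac
Pyy, chr11:102107833-102107932: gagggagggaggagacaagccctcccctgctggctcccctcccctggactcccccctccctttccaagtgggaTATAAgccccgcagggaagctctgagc
The capitals mark TATAA, the core of a TATA box, in Gcg, Ppy and Pyy, and TGACGTCA, the cAMP response element, in Sst. Both were searched on both strands of the 250 bases before the start, where TATAA was found in 22.8% and TGACGTCA in 1.55% of 32851 RefSeq windows. TTCNNNGAA, the type of site that the prolactin-activated factor STAT5 binds, was found in 7.02% of the windows. It was found in 0 of the 8 members with a window, Irx1 having none. For each member only the window of the most upstream start was searched, although Ghrl had 4 windows and Pyy 2. Such matches describe letters and not binding.

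Values are log2 expression from robust multichip analysis, rounded to 0.1, and every test below comes from 1 limma model over all probe sets. A gene was called when its fold change (FC) was at least 1.5 and its adjusted p (Benjamini-Hochberg, over all 35511 probe sets) was under 0.05. The hormone genes Gcg, Sst, Ppy and Pyy were at 11.2 or above on every array, and Ghrl was at 5.9 to 6.6. Ctrb1, a digestive enzyme gene of acinar cells, was at 11.1 to 13.4, so such levels do not measure islet purity. Correlations between arrays were 0.972 to 0.988 within a stage (30 pairs) and 0.931 to 0.969 between stages (36 pairs). Prlr+/+ P9.5 replicate 2 stood apart, with Xist, the RNA of the inactive X chromosome, at 3.8 against 10 to 10.7 on the other 11 arrays and with the Y-linked Kdm5d at 4.2, Eif2s3y at 3.4 and Uty at 3.7, inside the range of the other arrays. For the members, some results that use that array are given with and without it. Log2 differences of the other named genes are given only with it. In whole islets, fewer cells of a type and less RNA per cell cannot be told apart.

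**Figure D1:**
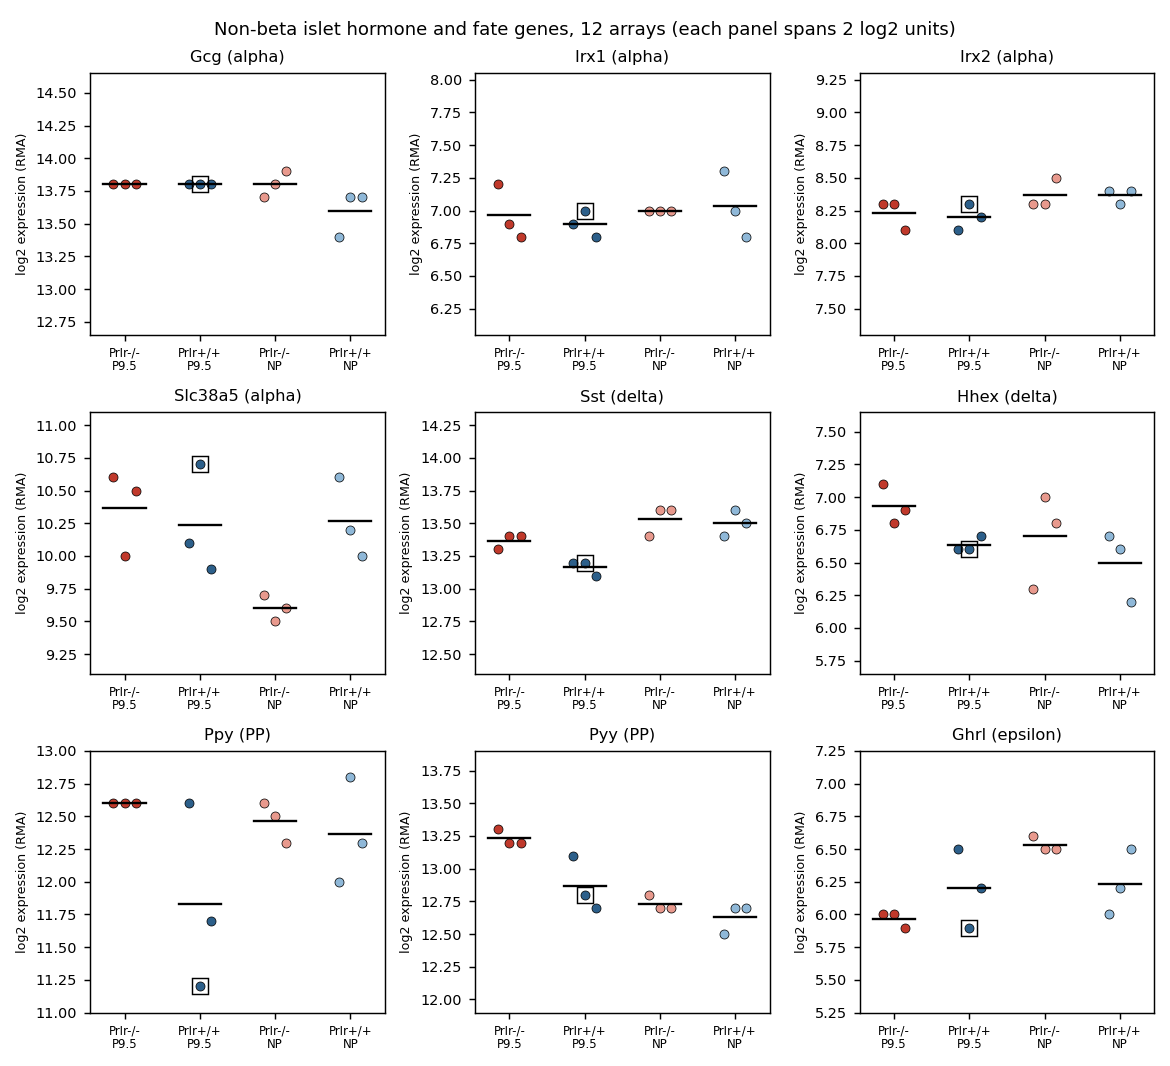
Log2 expression of the 9 genes on each of the 12 arrays (points) by group, with the group mean as a bar and a square around Prlr+/+ P9.5 replicate 2. Each panel spans the same number of log2 units, so the flat panels of Gcg and Irx2 can be set against the wide scatter of Ppy in Prlr+/+ P9.5 islets and the low NP values of Slc38a5 in Prlr-/- islets.

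Across the 5 comparisons, the single member that met the criterion was Slc38a5, which was higher at P9.5 than in NP islets of Prlr-/- mice. Between the genotypes, 0 of 9 genes were called at P9.5, where 0.231% of all probe sets were, and 0 of 9 in NP islets, where 0.101% were. Between the stages, 1 of 9 was called in Prlr-/- mice, against 14.5% of all probe sets, and 0 of 9 in Prlr+/+ mice, against 9.93%. Of the difference between the genotypes in the pregnancy effect, the interaction, 0 of 9 were called, against 0.0788% of all probe sets. At an unadjusted p under 0.05 in limma, 2 members passed between the genotypes at P9.5 (5.42% of all probe sets), 1 in NP islets (12.3%), 3 between the stages in Prlr-/- mice (44.9%), 1 in Prlr+/+ mice (35.9%) and 2 in the interaction (9.85%). The 3 arrays of each group did not overlap for 3 members between the genotypes at P9.5 (6.08% of all probe sets), for 1 in NP islets (11.7%), for 3 between the stages in Prlr-/- mice (41.8%) and for 2 in Prlr+/+ mice (32.4%). The median log2 fold change of the 9 members was 0.13 between the genotypes at P9.5 and 0.10 in NP islets, with 0 in both for all probe sets, and between the stages it was 0 in Prlr-/- and -0.03 in Prlr+/+ mice, with -0.07 in both for all probe sets.

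**Figure D2:**
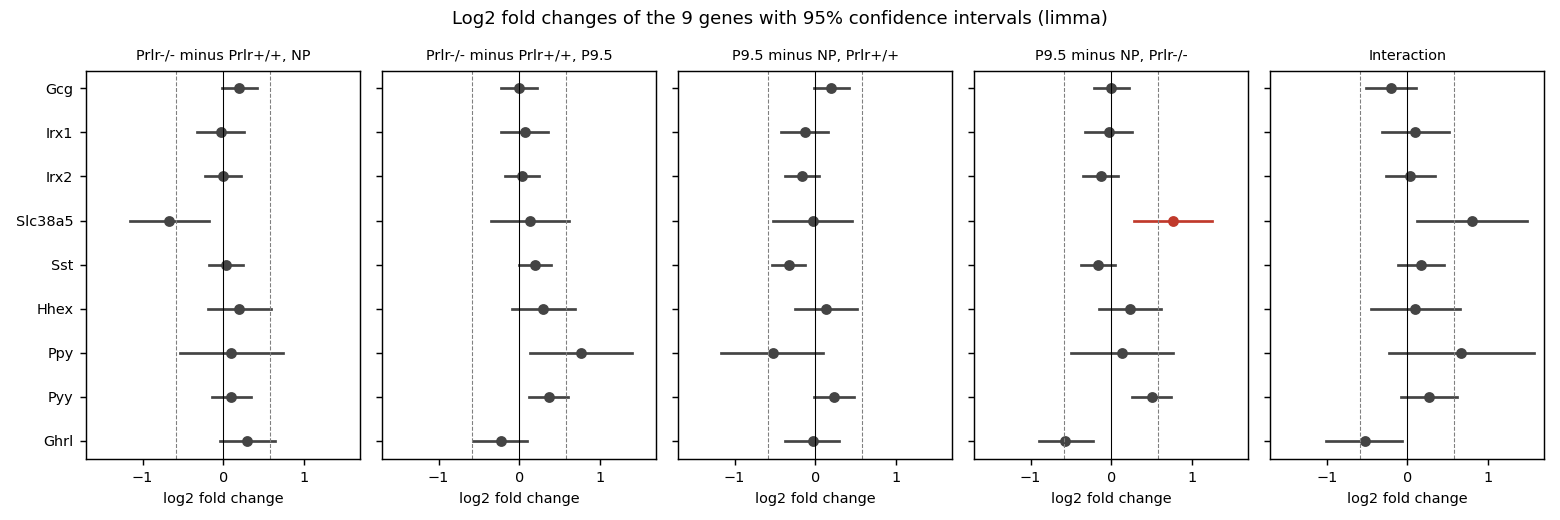
Log2 fold changes of the 9 genes (points) with 95% confidence intervals (lines) in the 5 comparisons, the interaction being the P9.5 minus NP difference in Prlr-/- minus that in Prlr+/+ islets. Dashed lines mark a fold change of 1.5 and red marks the gene that was called, Slc38a5 at P9.5 against NP in Prlr-/- islets.

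Gcg, the glucagon gene, hardly varied. Its values were 13.8, 13.8 and 13.8 in Prlr-/- P9.5 islets, against 13.8, 13.8 and 13.8 in Prlr+/+ P9.5 islets. In NP islets they were 13.7, 13.8 and 13.9 in Prlr-/- mice, against 13.4, 13.7 and 13.7 in Prlr+/+ mice. The Prlr+/+ NP group was thus the lowest, and its arrays did not overlap with those of Prlr+/+ P9.5 islets. The P9.5 minus NP difference was 0.20 log2 in Prlr+/+ islets (standard error 0.0988, adjusted p = 0.169 from limma) and 0 in Prlr-/- islets. Between the genotypes at P9.5 the Gcg difference was 0, with a 95% confidence interval of -0.22 to 0.22. The highest value of the whole table is 14.7, and how far the signal of the brightest probe sets is compressed was not tested.

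The alpha cell factors Irx1 and Irx2 were also close to level. Irx1 was at 7.2, 6.9 and 6.8 in Prlr-/- P9.5 islets, against 6.9, 7.0 and 6.8 in Prlr+/+ P9.5 islets, and at 7.0, 7.0 and 7.0 in Prlr-/- NP islets, against 7.3, 7.0 and 6.8 in Prlr+/+ NP islets. Irx2 was at 8.3, 8.3 and 8.1 in Prlr-/- P9.5 islets, against 8.1, 8.3 and 8.2 in Prlr+/+ P9.5 islets, and at 8.3, 8.3 and 8.5 in Prlr-/- NP islets, against 8.4, 8.3 and 8.4 in Prlr+/+ NP islets. All group ranges of both genes overlapped or touched in the 4 comparisons between groups. The 4 group means of Irx1 spanned 0.13 and those of Irx2 0.17 log2 units, and no neighbours in their order were apart. Irx1 and Irx2 lie on chromosome 13 with 6 genes between them, 0 of them protein-coding.

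Slc38a5, the amino acid transporter of alpha cells, moved most among the alpha genes. It was at 10.6, 10 and 10.5 in Prlr-/- P9.5 islets, against 9.7, 9.5 and 9.6 in Prlr-/- NP islets. In Prlr+/+ mice it was at 10.1, 10.7 and 9.9 at P9.5, against 10.6, 10.2 and 10 in NP islets. The 3 Prlr-/- NP arrays lay below all 9 others. In Prlr-/- islets Slc38a5 rose at P9.5 against NP, with pregnancy and pellet together, by 0.77 log2 (FC 1.7, standard error 0.221, 95% confidence interval 0.28 to 1.25, adjusted p = 0.0206 from limma). In Prlr+/+ islets the pregnancy difference was -0.03 (adjusted p = 0.929), and -0.27 (adjusted p = 0.428) without Prlr+/+ P9.5 replicate 2. The interaction was 0.80 (standard error 0.312, adjusted p = 0.433), so a difference between the genotypes in the pregnancy effect did not pass the test. It was 1.03 (adjusted p = 0.218) without that array, which had the highest Slc38a5 value.

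The genotype difference of Slc38a5 was -0.67 log2 in NP islets (an FC of 1.59 downwards, standard error 0.221, 95% confidence interval -1.15 to -0.18, unadjusted p = 0.0111, adjusted p = 0.262 from limma), and the arrays of the genotypes did not overlap. At P9.5 it was 0.13 (95% confidence interval -0.35 to 0.62), with overlapping arrays, and 0.37 (adjusted p = 0.911) without Prlr+/+ P9.5 replicate 2. In the order of group means, Prlr-/- P9.5 (10.37 ± 0.32, SD, n = 3 as for all means here), Prlr+/+ NP (10.27 ± 0.31) and Prlr+/+ P9.5 (10.23 ± 0.42) lay within their spread. Prlr-/- NP (9.60 ± 0.10) was apart from its neighbour by 0.63. The pregnancy call in Prlr-/- islets was lost when 1 of 3 arrays was left out: Prlr-/- P9.5 replicate 1 (0.65, adjusted p = 0.0751), Prlr-/- P9.5 replicate 3 (0.70, adjusted p = 0.0719) or Prlr-/- NP replicate 2 (0.72, adjusted p = 0.0601).

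Further alpha cell genes on a list were measured through 5 probe sets (Pou3f4, Ttr, Slc7a2, Fap and Etv1), and 0 were called in any of the 5 comparisons. Their median log2 fold change between the genotypes at P9.5 was 0.17, where that of all probe sets was 0. Slc7a2, a transporter of cationic amino acids, was at 9.8, 9.8 and 9.9 in Prlr-/- P9.5 islets, against 9.2, 9.5 and 9.7 in Prlr+/+ P9.5 islets (0.37 log2, unadjusted p = 0.0162). Etv1, a transcription factor, was at 9.3, 9.3 and 9.5 in Prlr-/- P9.5 islets, against 8.9, 9.1 and 9.1 in Prlr+/+ P9.5 islets (0.33 log2, unadjusted p = 0.0065). The groups of both genes did not overlap, as in 6.08% of all probe sets.

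Slc38a5 also moved together with genes of cells other than alpha cells. By a rule that ranks genes by their correlation with a member over the 12 arrays, among 1955 genes with a comparable span, the closest to Slc38a5 was Emcn, which encodes endomucin, a surface sialomucin of endothelial cells (r = 0.932, and 0.930 for deviations from the group means). Next came Mns1 (r = 0.924), named for meiosis-specific nuclear structural protein, and Nipsnap3b (r = 0.901). Emcn ranged over 8.3 to 8.6 in Prlr-/- P9.5 islets, against 7.6 to 7.9 in Prlr-/- NP islets, and over 8.3 to 8.7 in Prlr+/+ P9.5 islets, against 8.1 to 8.4 in Prlr+/+ NP islets. Like Slc38a5 it was higher at P9.5 in Prlr-/- islets (0.77 log2, adjusted p = 0.0022 from limma) and lower in Prlr-/- than Prlr+/+ NP islets without a call (-0.53, adjusted p = 0.182). Over the 11 arrays without Prlr+/+ P9.5 replicate 2, r between Slc38a5 and Emcn was 0.916. These correlations share the arrays and their group differences and are given as a description.

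The summed level of 7 endothelial markers (Pecam1, Cdh5, Kdr, Tek, Flt1, Plvap and Esam), as log2 of the sum, ranged over 10.87 to 11.07 in Prlr-/- P9.5 islets, against 10.71 to 10.76 in Prlr-/- NP islets. In Prlr+/+ mice it ranged over 10.70 to 11.05 at P9.5, against 10.88 to 11.04 in NP islets. The Prlr-/- NP sums lay low on the same 3 arrays as Slc38a5. Prlr+/+ P9.5 replicates 1 and 3 had sums of 10.70 and 10.71, with Slc38a5 at 10.1 and 9.9. Of these 7 markers, 1 was called higher at P9.5 in Prlr-/- islets (Tek, 0.63 log2) and 0 lower, against 14.5% of all probe sets called. With Prlr-/- P9.5 replicate 1 left out, 2 were called. An unadjusted p under 0.05 was reached by 3 of the 7, against 44.9% of all probe sets. Between the genotypes in NP islets, none of the 7 was called, where 0.101% of all probe sets were. At an unadjusted p under 0.05, 2 passed (Pecam1 by -0.40 and Cdh5 by -0.30 log2), against 12.3% of all probe sets. The correlation of Slc38a5 with the endothelial sum was 0.60 over the 12 arrays and 0.29 for deviations from the group means. With the sum of 7 immune markers it was 0.70, and 0.64 for deviations. With the sum of 4 neural and Schwann cell markers it was 0.75, and 0.65 for deviations, but that sum was carried by Th (8.9 to 9.7), the enzyme of catecholamine synthesis. The other 3, S100b, Sox10 and Gfap, lay at 5.0 to 6.3 and ran opposite to Slc38a5 at P9.5 against NP in Prlr-/- islets, by -0.20, -0.40 and -0.13 log2. The part of these cells in the Slc38a5 result was not tested.

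Sst, the somatostatin gene, was lowest in pregnant Prlr+/+ islets. It was at 13.3, 13.4 and 13.4 in Prlr-/- P9.5 islets, against 13.2, 13.2 and 13.1 in Prlr+/+ P9.5 islets. In NP islets it was at 13.4, 13.6 and 13.6 in Prlr-/- mice, against 13.4, 13.6 and 13.5 in Prlr+/+ mice. The Prlr+/+ P9.5 arrays lay below all 9 others. In Prlr+/+ islets Sst was lower at P9.5 than in NP islets by a log2 difference of -0.33 (standard error 0.0928, 95% confidence interval -0.54 to -0.13, adjusted p = 0.0248 from limma), past the p threshold but under the FC minimum of 1.5. Without Prlr+/+ P9.5 replicate 2 it was -0.35 with an adjusted p of 0.0531. In Prlr-/- islets the pregnancy difference was -0.17 (adjusted p = 0.184), and the interaction of 0.17 (adjusted p = 0.717) did not pass. The summed level of 5 ductal markers lay low with Sst. It ranged over 9.40 to 9.71 in Prlr+/+ P9.5 islets, against 10 to 10.42 in Prlr+/+ NP islets. Of the 5, 1 was called lower there (Krt7, -0.80 log2), against 9.93% of all probe sets called. That sum was carried by Krt7 (9.0 to 10.2 over the 12 arrays), while Krt19, Sox9, Cftr and Muc1 lay between 4.0 and 6.5. Sst correlated with the ductal sum at 0.82 over the 12 arrays and at 0.20 for deviations from the group means, and with the immune sum at -0.76 and -0.33. The part of these cells in the Sst difference was not tested.

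Between the genotypes at P9.5, Sst differed by 0.20 log2 (standard error 0.0928, adjusted p = 0.919 from limma), with arrays that did not overlap. Hhex, the delta cell factor, was at 7.1, 6.8 and 6.9 in Prlr-/- P9.5 islets, against 6.6, 6.6 and 6.7 in Prlr+/+ P9.5 islets. In NP islets Hhex was at 6.3, 7.0 and 6.8 in Prlr-/- mice, against 6.7, 6.6 and 6.2 in Prlr+/+ mice. The P9.5 arrays of the genotypes did not overlap, while the NP arrays overlapped. The Hhex genotype difference at P9.5 was 0.30 log2 (standard error 0.177, 95% confidence interval -0.09 to 0.69, unadjusted p = 0.116). Sst and Hhex thus both had higher means in Prlr-/- than in Prlr+/+ P9.5 islets, and neither difference passed the test.

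The remaining delta cell genes on the list were Rbp4, Ghsr, Ffar4, Casr and Ptprz1, each with a probe set of its own. Between the genotypes at P9.5, 0 of 5 were called, where 0.231% of all probe sets were. At an unadjusted p under 0.05, 4 of 5 were higher in Prlr-/- islets, and in 4 the groups did not overlap, against 5.42% and 6.08% of all probe sets. Their median log2 fold change was 0.37, where that of all probe sets was 0. The list was chosen with earlier results of these data known, so the counts are a description and not a test. Ptprz1, a receptor tyrosine phosphatase, was at 6.4, 6.0 and 6.8 in Prlr-/- P9.5 islets, against 5.7, 5.7 and 5.7 in Prlr+/+ P9.5 islets (0.70 log2, adjusted p = 0.439 from limma). Casr, the calcium-sensing receptor, was at 8.7, 8.7 and 8.7 in Prlr-/- P9.5 islets, against 8.4, 8.4 and 8.2 in Prlr+/+ P9.5 islets (0.37 log2, adjusted p = 0.234). Rbp4, a retinol carrier, differed by 0.33, Ffar4, a fatty acid receptor, by 0.40 and Ghsr, the ghrelin receptor, by 0.10 log2.

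With pregnancy, these delta genes differed between the genotypes in their values without passing the interaction test. In Prlr+/+ islets their median log2 fold change at P9.5 against NP was -0.30, with 0 of 5 called, against 9.93% of all probe sets. There 3 of 5 were lower at an unadjusted p under 0.05, which 35.9% of all probe sets passed in either direction. Those were Casr (-0.43, adjusted p = 0.00495 from limma, under the FC minimum), Ffar4 (-0.37, adjusted p = 0.0881) and Rbp4 (-0.30, adjusted p = 0.0792). In Prlr-/- islets 1 of 5 was called, Ptprz1, against 14.5% of all probe sets. It rose by 0.70 log2 (adjusted p = 0.0173 from limma). That call was lost when either replicate 1 of Prlr-/- NP or replicate 3 of Prlr-/- P9.5 was left out. The interaction was 0.57 for Casr (adjusted p = 0.146), 0.50 for Rbp4 (adjusted p = 0.34) and 0.77 for Ptprz1 (adjusted p = 0.393). The comparisons share the Prlr+/+ P9.5 arrays, so their values are not independent of each other.

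**Figure D3:**
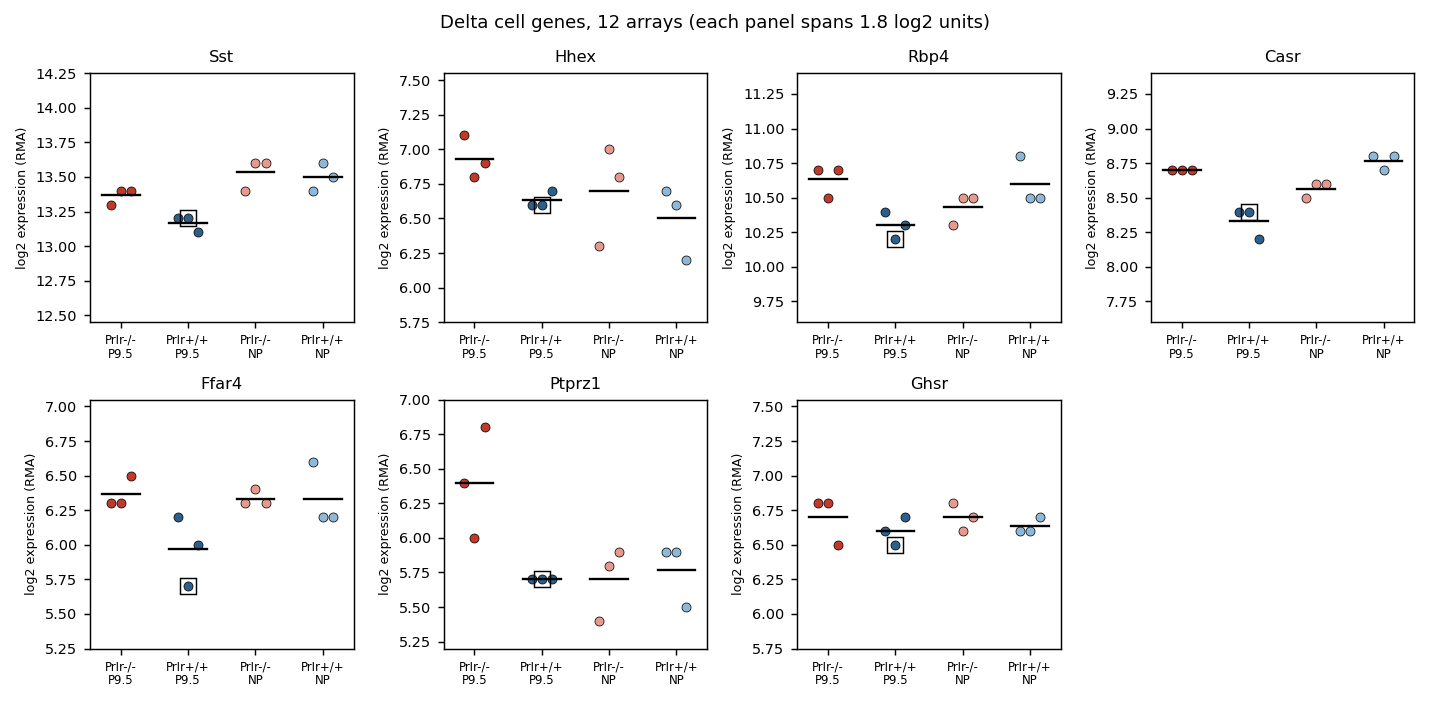
Log2 expression of Sst, Hhex and 5 further delta cell genes on each of the 12 arrays (points), with group means as bars and a square around Prlr+/+ P9.5 replicate 2. In Sst, Hhex, Rbp4, Casr and Ptprz1 all Prlr-/- P9.5 arrays lie above all Prlr+/+ P9.5 arrays, as they do in Ffar4 from 6.3 against at most 6.2, while Ghsr overlaps.

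Ppy, the pancreatic polypeptide gene, had the widest range of the 9 genes, 1.6 log2 units. It was at 12.6, 12.6 and 12.6 in Prlr-/- P9.5 islets, against 12.6, 11.2 and 11.7 in Prlr+/+ P9.5 islets. In NP islets it was at 12.6, 12.5 and 12.3 in Prlr-/- mice, against 12, 12.8 and 12.3 in Prlr+/+ mice. The lowest values were those of Prlr+/+ P9.5 replicates 2 and 3, while replicate 1 of that group equalled the Prlr-/- arrays. The genotype difference at P9.5 was 0.77 log2 (FC 1.7, standard error 0.291, 95% confidence interval 0.13 to 1.40, unadjusted p = 0.0222, adjusted p = 0.78 from limma). Without Prlr+/+ P9.5 replicate 2, the array with the low Xist value, it was 0.45 (adjusted p = 0.915).

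With pregnancy Ppy differed by -0.53 log2 in Prlr+/+ islets (standard error 0.291, adjusted p = 0.212 from limma), and by -0.22 (adjusted p = 0.636) without that array. Leaving out Prlr+/+ P9.5 replicate 1 instead gave -0.92 (adjusted p = 0.0192), which would be called. In Prlr-/- islets the difference was 0.13 (adjusted p = 0.746). The genes whose pattern was closest to Ppy over the 12 arrays were Sult1d1, a sulfotransferase (r = 0.744), Xist (0.731) and Chac1, which degrades glutathione (0.703). Without Prlr+/+ P9.5 replicate 2 these were 0.555, -0.191 and 0.566, so the likeness to Xist rested on that array.

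Pyy, the peptide YY gene, was highest in pregnant Prlr-/- islets. It was at 13.3, 13.2 and 13.2 in Prlr-/- P9.5 islets, against 12.8, 12.7 and 12.7 in Prlr-/- NP islets. In Prlr+/+ mice it was at 13.1, 12.8 and 12.7 at P9.5, against 12.5, 12.7 and 12.7 in NP islets. The 3 Prlr-/- P9.5 arrays lay above all 9 others. In Prlr-/- islets Pyy was higher at P9.5 by 0.50 log2 (FC 1.41, standard error 0.112, 95% confidence interval 0.26 to 0.74, adjusted p = 0.00594 from limma), past the p threshold but under the FC minimum, and its adjusted p stayed at 0.0251 or below over the alternatives tried. In Prlr+/+ islets the pregnancy difference was 0.23 (adjusted p = 0.156), and the interaction was 0.27 (adjusted p = 0.616).

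Between the genotypes at P9.5, Pyy differed by 0.37 log2 (standard error 0.112, 95% confidence interval 0.12 to 0.61, unadjusted p = 0.00677, adjusted p = 0.541 from limma), and by 0.33 without Prlr+/+ P9.5 replicate 2. Group means of Pyy were 13.23 ± 0.06 in Prlr-/- P9.5, 12.87 ± 0.21 in Prlr+/+ P9.5, 12.73 ± 0.06 in Prlr-/- NP and 12.63 ± 0.12 in Prlr+/+ NP islets, and of the neighbours in this order only the leading pair did not overlap. Ppy and Pyy are adjacent genes on chromosome 11, with 0 genes between them. Over the 12 arrays they correlated at 0.41, and at 0.79 for deviations from the group means. Within Prlr+/+ P9.5 islets replicate 1 was the highest array for both genes.

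Ghrl, the ghrelin gene, was measured at low values, 5.9 to 6.6 over the 12 arrays. For scale, 12 genes that islets should not express (Y-linked genes and genes of other organs) were listed at 3.0 to 6.2, and since probe sets differ in brightness this sets no order between genes. Ghrl was at 6.0, 6.0 and 5.9 in Prlr-/- P9.5 islets, against 6.6, 6.5 and 6.5 in Prlr-/- NP islets. In Prlr+/+ mice it was at 6.5, 5.9 and 6.2 at P9.5, against 6.0, 6.2 and 6.5 in NP islets. The Prlr-/- arrays of the stages did not overlap, whereas the Prlr+/+ arrays overlapped widely. In Prlr-/- islets the pregnancy difference was -0.57 log2 (standard error 0.153, 95% confidence interval -0.90 to -0.23, adjusted p = 0.0155 from limma), an FC of 1.48 downwards and just under the FC minimum. Over the alternatives tried it ranged over -0.58 to -0.40, with an adjusted p of up to 0.0685, so the p threshold was not passed in all of them. Of the 12 genes listed for scale, 2 were called lower in the same comparison (Opn1sw, -0.63, and Prm1, -0.60 log2), where 14.5% of all probe sets were called. Prm2 (-0.47, adjusted p = 0.0162) and Tnp1 (-0.27, adjusted p = 0.0412) passed the p threshold with lower values. The Y-linked Uty (0.23), Eif2s3y (0.13), Usp9y (0.13) and Kdm5d (0.07) had higher values without a call, and the median of the 12 was -0.15 log2. A difference of the size of that of Ghrl was thus also seen in some genes that islets should not express. The part of low signal in the Ghrl difference was not tested.

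In Prlr+/+ islets the pregnancy difference of Ghrl was -0.03 (adjusted p = 0.887), and 0.12 without Prlr+/+ P9.5 replicate 2. The interaction was -0.53 (standard error 0.217, unadjusted p = 0.0308, adjusted p = 0.448 from limma), and -0.68 (adjusted p = 0.262) without that array. Between the genotypes Ghrl differed by -0.23 at P9.5 (adjusted p = 0.977), by -0.38 (adjusted p = 0.787) without that array, and by 0.30 in NP islets (adjusted p = 0.461). Mboat4, the enzyme that acylates ghrelin, was at 5.7, 5.8 and 5.6 in Prlr-/- P9.5 islets, against 6.0, 5.9 and 5.9 in Prlr-/- NP islets. Its pregnancy difference was -0.23 log2 in both genotypes, without a call.

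Most markers of the acinar cells, which make the digestive enzymes of the pancreas, were like Ghrl lower at P9.5 than in NP islets of Prlr-/- mice. Of 15 such markers, 10 were called lower and 1 higher (Bhlha15, 0.93 log2) at P9.5 in Prlr-/- islets, where 14.5% of all probe sets were called. The median log2 fold change of the 15 was -1.27. The count of lower markers was 0 when replicate 1 of Prlr-/- NP or replicate 3 of Prlr-/- P9.5 was left out, 4 when Prlr-/- P9.5 replicate 2 was, and 5 when Prlr-/- NP replicate 3 was. In Prlr+/+ islets 0 were called lower and 1 higher (Bhlha15, 0.77), against 9.93% of all probe sets called, with a median of -0.53. Their summed level ranged over 13.46 to 15.10 in Prlr-/- P9.5 islets, against 15.08 to 15.93 in Prlr-/- NP islets, and over 13.93 to 15.10 in Prlr+/+ P9.5 islets, against 14.72 to 15.22 in Prlr+/+ NP islets. Ghrl correlated with this sum at 0.65 over the 12 arrays and at 0.27 for deviations from the group means. On the arrays with sums of 15.08 to 15.22, Ghrl was at 6.0 in Prlr-/- P9.5 replicate 1 and 6.2 in Prlr+/+ P9.5 replicate 3. It was at 6.2 in Prlr+/+ NP replicate 2 and 6.5 in Prlr-/- NP replicate 2. The part of acinar tissue in the Ghrl difference was not tested. Ghrl and Slc38a5 ran opposite to each other over the 12 arrays (r = -0.82, and -0.67 for deviations from the group means).

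**Figure D4:**
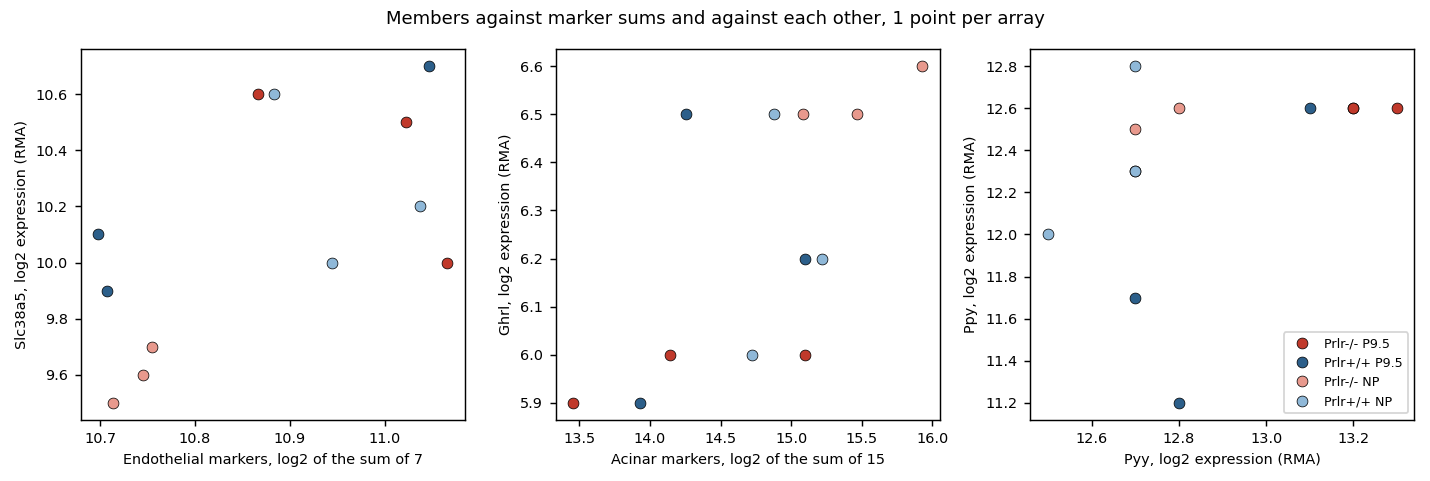
Slc38a5 against the summed endothelial markers, Ghrl against the summed acinar markers, and Ppy against Pyy, with 1 point per array, equal values drawn over each other and all axes in log2 units. The 3 Prlr-/- NP arrays have the lowest Slc38a5 values, 9.5 to 9.7, and the 3 Prlr-/- P9.5 arrays share the Ppy value of 12.6 and have the highest Pyy values.

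Receptors for these hormones were followed on a list of 13 genes, and 0 were called in any of the 5 comparisons, although 1 was called lower with pregnancy in Prlr+/+ islets when Prlr+/+ NP replicate 1 was left out. At P9.5 against NP, 4 of 13 had an unadjusted p under 0.05 in each genotype, all with lower values at P9.5, against 44.9% of all probe sets in Prlr-/- and 35.9% in Prlr+/+ islets, with a median log2 fold change of -0.20 in both. Sstr3, a somatostatin receptor, was at 8.1, 8.1 and 8.1 in Prlr-/- P9.5 islets, against 8.5, 8.5 and 8.4 in Prlr-/- NP islets (-0.37 log2, adjusted p = 0.0334 from limma). In Prlr+/+ mice Sstr3 was at 8.3, 8.3 and 8.0 at P9.5, against 8.4, 8.7 and 8.8 in NP islets (-0.43, adjusted p = 0.0226). Npy2r, a receptor for peptide YY, differed by -0.47 (adjusted p = 0.026) in Prlr-/- islets. Its values were low, 4.0 to 4.8 over the 12 arrays, within the 3.0 to 6.2 of the genes listed for scale. The Sstr3 and Npy2r differences passed the p threshold and stayed under the FC minimum.

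Of 6 listed genes of prohormone processing, 5 were measured (Pcsk1, Cpe, Pam, Scg5 and Pcsk1n), and Pcsk2 had no probe set of its own. Between the genotypes at P9.5, 1 of 5 was called, against 0.231% of all probe sets. With pregnancy 2 of 5 were called in Prlr+/+ (9.93%) and 0 in Prlr-/- islets (14.5%). Pcsk1n, which encodes the inhibitor proSAAS, was at 10.5, 10.4 and 10.4 in Prlr-/- P9.5 islets, against 9.8, 10 and 9.6 in Prlr+/+ P9.5 islets (0.63 log2, adjusted p = 0.0446 from limma). That call was lost in 15 of 25 alternatives tried. With pregnancy Pcsk1n fell in Prlr+/+ islets by 1.07 log2 (adjusted p = 0.000282), and in Prlr-/- islets it differed by -0.50 (adjusted p = 0.00548, under the FC minimum). Pcsk1, the prohormone convertase that this inhibitor acts on, rose in Prlr+/+ islets by 0.77 log2 (adjusted p = 0.000739) and was higher at P9.5 in Prlr-/- islets by 0.50 log2 (adjusted p = 0.00385, under the FC minimum).

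On the genome, the nearest measured genes on either side of Gcg were Dpp4 and Fap, which encode related serine peptidases, and dipeptidyl peptidase 4 cleaves the Gcg product GLP-1 as well as peptide YY. Dpp4 was at 8.4, 8.4 and 8.4 in Prlr-/- P9.5 islets, against 7.5, 7.3 and 7.2 in Prlr-/- NP islets. In Prlr+/+ mice Dpp4 was at 7.8, 7.7 and 8.0 at P9.5, against 7.8, 7.4 and 7.6 in NP islets. It rose with pregnancy in Prlr-/- islets by 1.07 log2 (standard error 0.123, adjusted p = 0.000177 from limma), while Gcg on the same arrays did not differ. In that comparison 14.5% of all probe sets were called. Among the neighbours of other members, Kif11 (0.93) and Exoc6 (0.67) beside Hhex were called higher, and Ssxb10 (-0.97) beside Slc38a5 lower. At P9.5 Dpp4 was higher in Prlr-/- than in Prlr+/+ islets by 0.57 log2 without passing the test (adjusted p = 0.15), and the interaction was 0.83 (adjusted p = 0.138). Fap stayed at 4.0 to 4.5 on all 12 arrays.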

How the data were processed

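RNA of islets from Prlr-/- and Prlr+/+ mice, P9.5 and NP, was measured on 12 arrays. The deposited log2 expression values are the output of the authors' robust multichip analysis (the aroma.affymetrix package of R), rounded to 0.1. Genes were named through the annotation of the array platform, in which 21789 probe sets name 1 gene, 1621 several and 12101 none. In R 4.3.3, limma 3.58.1 (lmFit, eBayes) fitted 4 group means to all 35511 probe sets with no filter, and p-values were adjusted by Benjamini-Hochberg over all of them. An exact permutation test of 3 against 3 arrays cannot give a p under 0.1, so the model across probe sets was used. The fit was tested on simulated data. Named genes are the 9 members, members of the gene lists, the nearest neighbours on the genome and the 3 genes closest in pattern to members that spanned at least 1 log2 unit. The members and lists were chosen with earlier results of these data known. Of 130 listed genes, 117 had a probe set of their own. Columns of the table other than the 12 arrays were not used. Alternatives left out each array, used the replicate number as a block, or changed the filter, scaling, weights and FC minimum. The number of arrays limits the precision. The p-values set a group difference against the spread between these arrays, pooled over the 4 groups and moderated across all probe sets.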

Additional observations from a re-analysis of the deposited data

Results flagged for a closer look

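Casr, the calcium-sensing receptor on the list of delta cell genes, had mean differences of opposite sign, and its groups did not overlap in these comparisons. Groups did not overlap for 6.08% of all probe sets between the genotypes at P9.5 and 11.7% in NP islets. Between the stages the shares were 41.8% in Prlr-/- and 32.4% in Prlr+/+ islets. The Prlr-/- minus Prlr+/+ difference was 0.37 log2 at P9.5 (8.7, 8.7 and 8.7 in Prlr-/-, against 8.4, 8.4 and 8.2 in Prlr+/+ islets) and -0.20 log2 in NP islets (8.5, 8.6 and 8.6 in Prlr-/-, against 8.8, 8.7 and 8.8 in Prlr+/+ islets). The P9.5 minus NP difference of the same values was 0.13 log2 in Prlr-/- islets and -0.43 log2 in Prlr+/+ islets. The difference between these effects, the interaction, was 0.57 (adjusted p = 0.146 from limma) and did not pass the threshold.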

How the results depend on the processing

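Over 25 alternatives, 12 of which left out 1 array, 1116 values of single members were recomputed: 1076 kept their direction and side of the threshold, 8 gained a call, 4 lost it and 28 turned sign. The count of called members at P9.5 against NP was 1 in Prlr-/- islets, with 0 to 1 when 1 array was left out, 2 with median centring (Slc38a5 and Pyy), 3 with no FC minimum or one of 1.2 (Slc38a5, Pyy and Ghrl) and 0 with one of 2. In Prlr+/+ islets it was 0, with 0 to 1 when 1 array was left out (Ppy without Prlr+/+ P9.5 replicate 1) and 1 with no FC minimum or one of 1.2 (Sst). In the other 3 comparisons it was 0 throughout.

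Signs turned only for small differences that were not called. Median centring, which shifted log2 differences by 0.17 between the stages in Prlr-/-, by 0.07 in Prlr+/+ and by -0.10 between the genotypes in NP islets, gave 0.13 for Irx1 and 0.03 for Irx2 at P9.5 against NP in Prlr-/-, 0.03 for Ghrl and 0.03 for Slc38a5 in Prlr+/+, and -0.07 for Sst between the genotypes in NP islets. Quantile normalization gave -0.17 for Sst in that last comparison and -0.05 for Irx2 in the interaction, and added noise of up to 0.05 gave -0.01 for Sst. Array weights gave 0.02 for Irx1 between the genotypes in NP islets, 0.01 for Slc38a5 with pregnancy in Prlr+/+ and 0.07 for Irx1 in Prlr-/- islets. Leaving out 1 array gave ranges that crossed 0. Between the genotypes in NP islets they were -0.02 to 0.10 for Sst, -0.08 to 0.32 for Ppy and -0.15 to 0.10 for Irx1, and at P9.5 -0.05 to 0.15 for Irx1, -0.02 to 0.10 for Irx2 and -0.03 to 0.37 for Slc38a5. With pregnancy in Prlr+/+ islets they were -0.18 to 0.12 for Ghrl, -0.02 to 0.23 for Hhex and -0.27 to 0.13 for Slc38a5, in Prlr-/- islets -0.15 to 0.05 for Irx1, and in the interaction -0.03 to 0.22 for Irx1, -0.02 to 0.10 for Irx2 and -0.10 to 0.25 for Hhex. The cause was not tested.

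Counts over all probe sets moved more: 36 between the genotypes in NP islets (0 in a fit of only the groups compared, 172 without Prlr+/+ NP replicate 2), 82 at P9.5 (39 to 118), 3528 with pregnancy in Prlr+/+ (998 with an FC minimum of 2, 7745 with none), 5159 in Prlr-/- (1493 and 11846) and 28 in the interaction (16 to 133). Same-numbered arrays deviated together, at a correlation over 0.1, in 7 of 18 pairs, and 1 of 12 arrays was nearest to those sharing its number, so the numbers were not taken as pairs. With the replicate block the Slc38a5 difference in Prlr-/- islets was 0.77 (adjusted p = 0.0269 from limma), and the block changed no call of a member. Each member had 1 probe set, so the use of other probe sets gave no value, and a fit of only the groups compared does not apply to the interaction.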
